A study of Mus musculus with 7 samples.

Results

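The 7 genes Spon1, Gvin1, Arl6ip1, Pgap2, Coq7, Itpripl2 and Tmc7 lie on mouse chromosome 7 within 15 Mb of Arntl, the gene that was disrupted to make the Bmal1-/- mice (Arntl is another name of Bmal1). They were picked from these same data because the read counts of the mice labelled Bmal1-/- and of the WT mice did not overlap, after the Trim genes and the muscle genes of the region were set aside. The genotype values of the 7 genes below are therefore a description and carry no test. The count table held 21965 genes, of which 15743 passed a filter on low counts and were tested, and all 7 genes were among them. Gvin1 passed the filter only through the WT libraries, since it had no count in the others. Within 15 Mb of Arntl the table held 571 genes, of which 324 were tested.

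RNA was sequenced from contused spinal cord at 3 days post-injury (dpi 3). The Bmal1-/- group had 3 mice (2 females and 1 male) of the line B6.129-Arntltm1Bra/J, bred from heterozygous parents, and the WT group had 4 C57BL/6 mice (2 females and 2 males). All mice received a moderate contusion at T9 at an age of 8 to 10 weeks, and the RNA came from a 5 mm segment around the injury epicenter, with 1 library per mouse and no uninjured group. The deletion is a germ-line one and is limited neither to a cell type nor to the time of injury. Of the WT mice 1 was a littermate of Bmal1-/- mice and the others were bought from a supplier, and the labels do not say which is which. The strain name records that the targeted allele was made in a 129 strain and moved to C57BL/6, so any 129 DNA still next to the allele and the loss of BMAL1 cannot be told apart in this design.

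BMAL1 is the clock transcription factor that pairs with CLOCK and binds the E-box, and mice that lack it lose their circadian rhythm in constant darkness. Genes close to a targeted allele on its chromosome are usually inherited with it, because recombination rarely separates DNA that lies close together. The 7 genes otherwise have little in common. Spon1 encodes F-spondin, a secreted matrix protein with thrombospondin repeats that is made by the floor plate of the developing spinal cord and promotes neurite growth. Gvin1 encodes a very large GTPase induced by interferon. The products of 3 genes work in membranes of the cell interior or in mitochondria: ARL6IP1 shapes the tubules of the endoplasmic reticulum (ER), PGAP2 remodels the lipid of glycosylphosphatidylinositol (GPI) anchors in the Golgi, and COQ7 is a hydroxylase in the synthesis of coenzyme Q, the mobile electron carrier of the respiratory chain. ITPRIPL2 is named for its likeness to a protein that binds the inositol trisphosphate (IP3) receptor, and TMC7 is a relative of the channel proteins of hair cells.

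Gvin1 has a near-identical copy on the same chromosome, Gm4070, and the bases at which they differ can tell reads of Gvin1 from reads of Gm4070. The annotated transcripts of these genes that have the same length, 8795 bases, differed at 3 positions, all in the coding sequence. The differences are named with the Gvin1 base first, then the position counted from the A of the start codon, then the Gm4070 base. G1805T lies at position 106163456 of chromosome 7 in GRCm38, G4904A at 106160357 and C7075T at 106158186. The 51 bases around each are shown 5′ to 3′ on the coding strand (minus), with the differing base in capitals.
Gvin1 at G1805T: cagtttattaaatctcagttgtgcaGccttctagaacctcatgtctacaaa
Gm4070 at G1805T: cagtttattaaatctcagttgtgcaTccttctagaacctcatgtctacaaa
Gvin1 at G4904A: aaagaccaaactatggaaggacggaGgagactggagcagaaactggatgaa
Gm4070 at G4904A: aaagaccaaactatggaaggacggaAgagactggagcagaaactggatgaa
Gvin1 at C7075T: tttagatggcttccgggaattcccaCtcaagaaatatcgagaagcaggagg
Gm4070 at C7075T: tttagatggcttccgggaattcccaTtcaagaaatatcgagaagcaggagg

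Of the 9005 distinct stretches of 75 bases in the annotated transcripts of Gvin1, 8855 (98.3%) also occurred in a transcript of another gene, 8780 of them in Gm4070, and 150 occurred in no other gene. Pgap2 shared 532 of 5232 such stretches (10.2%) with AC139579.1, a gene model that overlaps it on the same strand. Spon1, Arl6ip1, Coq7, Itpripl2 and Tmc7 shared 0 stretches. The counts of Gvin1 and, less so, of Pgap2 therefore depend on how reads that match several genes were treated, which is not given in the sources used here.

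Arl6ip1, Itpripl2, Coq7 and Tmc7 stand close together on the minus strand, and the 250 bases before their transcription starts are shown because these 4 genes were lower together. The sequences are those of RefSeq (GRCm38.p6), 5′ to 3′ in the direction of transcription, with any match to 3 motifs in capitals. The motifs, searched on both strands, were the E-box CACGTG, the related E′-box CACGTT and the cyclic AMP response element (CRE) TGACGTCA, none of which contains another.
Arl6ip1, chr7:118129626-118129875 (minus strand): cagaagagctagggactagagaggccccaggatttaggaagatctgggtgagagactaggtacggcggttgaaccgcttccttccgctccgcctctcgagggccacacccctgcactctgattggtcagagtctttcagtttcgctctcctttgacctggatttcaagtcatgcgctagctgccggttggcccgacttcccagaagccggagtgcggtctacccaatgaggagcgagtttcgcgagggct
Itpripl2, chr7:118491976-118492225 (minus strand): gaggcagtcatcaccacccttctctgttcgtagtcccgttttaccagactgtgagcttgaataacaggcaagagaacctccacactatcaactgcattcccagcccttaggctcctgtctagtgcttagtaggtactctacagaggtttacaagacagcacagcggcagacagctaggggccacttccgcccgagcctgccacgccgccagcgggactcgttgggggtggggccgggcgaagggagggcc
Coq7, chr7:118533357-118533606 (minus strand): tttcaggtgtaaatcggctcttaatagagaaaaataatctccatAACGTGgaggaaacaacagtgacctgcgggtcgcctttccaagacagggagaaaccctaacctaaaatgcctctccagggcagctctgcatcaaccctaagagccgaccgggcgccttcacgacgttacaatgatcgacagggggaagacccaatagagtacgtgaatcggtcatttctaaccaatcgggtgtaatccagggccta
Tmc7, chr7:118584687-118584936 (minus strand): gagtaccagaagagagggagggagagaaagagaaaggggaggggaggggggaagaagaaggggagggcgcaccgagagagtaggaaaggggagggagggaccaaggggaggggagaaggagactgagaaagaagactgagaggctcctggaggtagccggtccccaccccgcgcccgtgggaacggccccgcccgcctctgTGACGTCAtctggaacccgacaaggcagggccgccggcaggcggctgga

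The table of promoters held 5 of the 7 genes, and Gvin1 and Spon1 were not matched. None of the windows of these 5 genes, 250 bases before to 50 after a start, held the E-box, which occurred in 7.15% of all 32851 windows of this length. The E′-box occurred in 4.685% of all windows. Coq7 held it 206 bases before its start, read there as its reverse complement, and Pgap2 held it at 1 site that lies in 2 of its 5 windows, which overlap there, 55 and 231 bases before the respective start. The CRE occurred in 1.79% of all windows, and was found 49 bases before the start of Tmc7 and 78 bases before 1 start of Pgap2. These matches describe the letters in the windows and not binding.

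Levels are given as CPM, which are counts scaled to a fixed library total and corrected by the TMM factors of edgeR. The libraries were similar in depth, with totals from 38529644 to 44096737 counts, so that spread between mice and not counting error limited most values. The targeted gene itself was checked first. Arntl (ENSMUSG00000055116, chr7:113207465-113314126) had 24.1, 24.2 and 22.5 CPM in Bmal1-/- replicates 1 to 3 and 14.7, 15.3, 11.9 and 13.4 CPM in WT replicates 1 to 4. All libraries labelled Bmal1-/- were above all WT libraries, a log2 fold change of 0.77 (SE 0.10, adjusted p = 0.0155, quasi-likelihood test of edgeR, adjusted over all tested genes). Counts over the whole gene do not show whether the deleted part was transcribed, and Gm45355 overlaps Arntl on the other strand, so this count does not check the labels. The call was lost without Bmal1-/- replicate 1, 2 or 3 and without WT replicate 4. The names of the groups are the labels throughout.

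Spon1 (ENSMUSG00000038156, chr7:113765998-114043370, plus strand) starts 0.452 Mb beyond the end of Arntl, and was the only one of the 7 genes that was higher in the Bmal1-/- libraries. Its levels were 297.8, 298.6 and 266.4 CPM in Bmal1-/- replicates 1 to 3 and 160.6, 166.5, 127.9 and 167.9 CPM in WT replicates 1 to 4. Every Bmal1-/- library was above every WT library, and the lowest WT value was that of replicate 3. The means were 288 ± 18.4 (SD, n = 3) and 156 ± 18.8 CPM (SD, n = 4), which is a log2 fold change of 0.88 (SE 0.11) or 1.85-fold.

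Gvin1 (ENSMUSG00000045868, chr7:106156556-106215326, minus strand) lies 6.99 Mb from Arntl on the side of the centromere. The Bmal1-/- libraries held 0, 0 and 0 counts and the WT libraries 19, 24, 28 and 21. The WT level was 0.583 ± 0.0951 CPM (SD, n = 4). Per kilobase of exon, the mean level of Gvin1 over all 7 libraries was at the 0.22 percentile of all tested genes. Since few of its reads can be assigned to it alone, this count does not give the abundance of the transcript. With a floor of 3 counts per library, the level in the Bmal1-/- libraries was at least 7.87-fold lower. Such a floor covers counting error only.

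Gm4070, the near copy, was counted at 18, 30 and 12 in the Bmal1-/- libraries and at 19, 13, 26 and 20 in the WT libraries. Its groups overlapped, with 0.486 ± 0.197 (SD, n = 3) against 0.493 ± 0.129 CPM (SD, n = 4) and a log2 fold change of -0.02 (SE 0.35, adjusted p = 0.983, edgeR's quasi-likelihood test). The sum of both genes was 18, 30 and 12 counts against 38, 37, 54 and 41, so the sum was lower by about the counts of Gvin1.

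**Figure D1:**
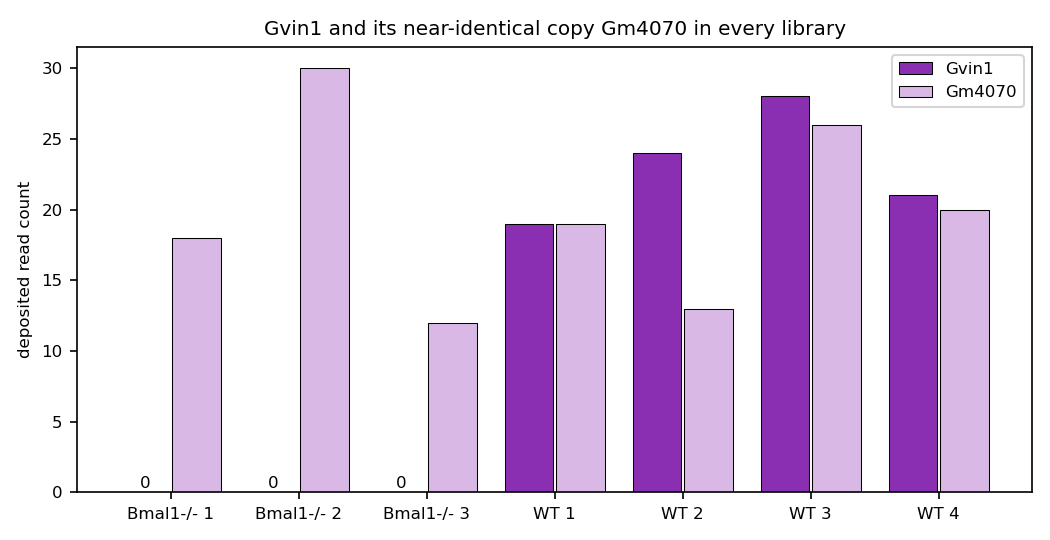
Deposited read counts (vertical axis) of Gvin1 (dark bars) and Gm4070 (light bars) in each of the 7 libraries (horizontal axis). Gvin1 has 0 counts in the 3 Bmal1-/- libraries and 19 to 28 in the 4 WT libraries, while Gm4070 has 12 to 30 and 13 to 26.

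Arl6ip1 (ENSMUSG00000030654, chr7:118118891-118129662, minus strand), the ER-shaping gene, was by far the most abundant of the 7 per kilobase of exon. Its levels were 275.0, 277.7 and 278.7 CPM in the Bmal1-/- libraries and 355.9, 354.9, 385.4 and 347.6 CPM in the WT libraries. The Bmal1-/- libraries were all below the WT libraries. Their coefficient of variation of 0.689% was below the 0.943% that counting alone gives, so it does not measure how alike these mice were. The means were 277 ± 1.91 (SD, n = 3) and 361 ± 16.7 CPM (SD, n = 4), and the log2 fold change of -0.38 (SE 0.07) was the smallest of the 7 in size.

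Pgap2 (ENSMUSG00000030990, chr7:102210208-102238567, plus strand), the GPI-anchor remodelling gene, lies 10.97 Mb from Arntl on the centromere side and is the farthest of the 7. Its levels were 20.4, 22.9 and 20.3 CPM in the Bmal1-/- libraries and 28.5, 28.6, 32.1 and 31.7 CPM in the WT libraries. The groups were apart, at 21.2 ± 1.43 (SD, n = 3) and 30.3 ± 1.94 CPM (SD, n = 4), with a log2 fold change of -0.51 (SE 0.08).

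Coq7 (ENSMUSG00000030652, chr7:118509659-118533356, minus strand), the coenzyme Q hydroxylase, had 22.7, 22.9 and 22.6 CPM in the Bmal1-/- libraries. The WT libraries had 29.6, 33.7, 39.99 and 34.5 CPM, more widely spread and all above the others. The means were 22.8 ± 0.14 (SD, n = 3) and 34.4 ± 4.28 CPM (SD, n = 4), for a log2 fold change of -0.60 (SE 0.10). The coefficient of variation of 0.599% between the Bmal1-/- libraries was below the 3.29% that counting alone gives at this depth, so the same holds for this value.

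Itpripl2 (ENSMUSG00000095115, chr7:118485111-118491975, minus strand) was at 27.5, 31.5 and 23.1 CPM in the Bmal1-/- libraries and at 56.1, 55.9, 80.6 and 62.6 CPM in the WT libraries. WT replicate 3 was highest, and the other 3 WT libraries still lay well above the Bmal1-/- libraries. The means of 27.4 ± 4.18 (SD, n = 3) and 63.8 ± 11.6 CPM (SD, n = 4) gave a log2 fold change of -1.22 (SE 0.16), the largest difference in size among the genes with counts in every library.

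Tmc7 (ENSMUSG00000042246, chr7:118535841-118584736, minus strand), of the family of transmembrane channel-like proteins, was at 21.6, 20.1 and 22.6 CPM in the Bmal1-/- libraries. In the WT libraries it was at 29.8, 28.9, 29.8 and 31.4 CPM, with no overlap and little spread. The means were 21.4 ± 1.30 (SD, n = 3) and 30.0 ± 1.04 CPM (SD, n = 4), for a log2 fold change of -0.48 (SE 0.07).

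**Figure D2:**
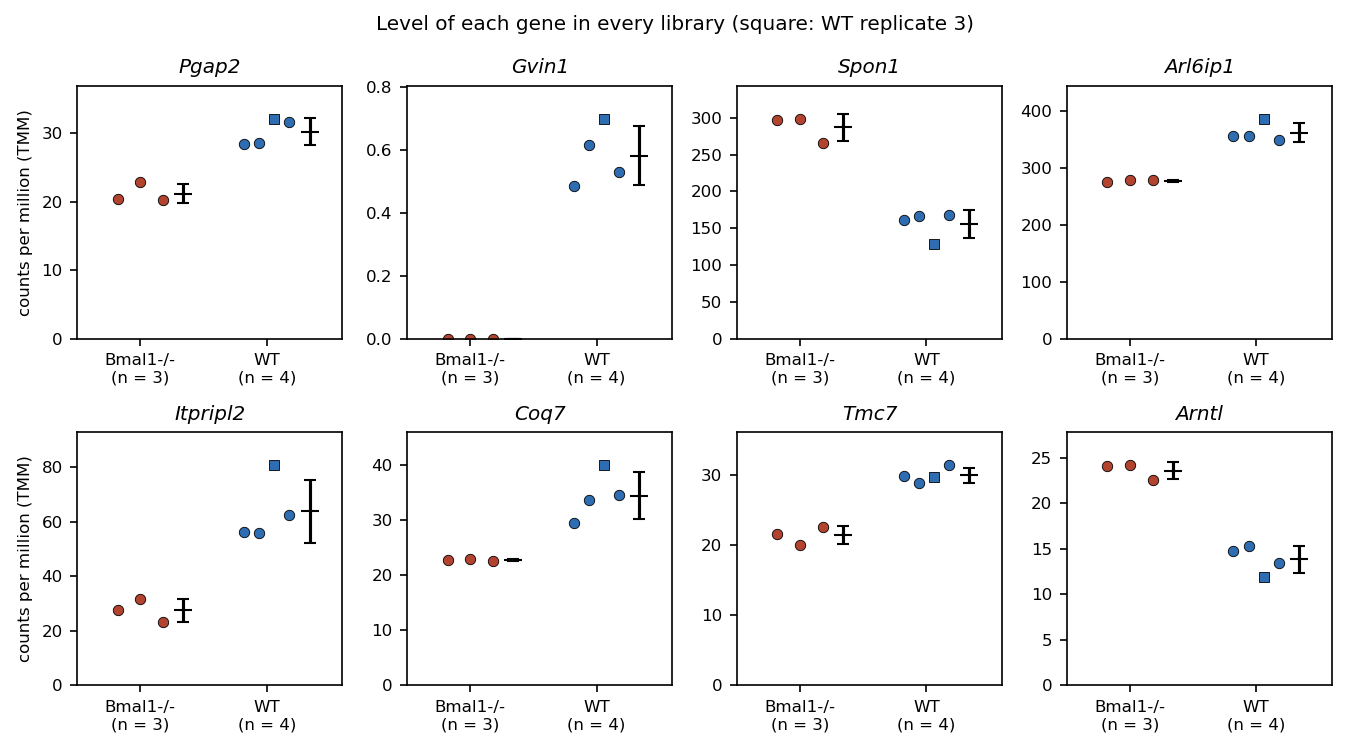
Level in CPM (vertical axis, from 0) of each of the 7 genes and of Arntl in every library, with Bmal1-/- libraries (n = 3) left and WT libraries (n = 4) right in each panel, and the mean ± SD beside the points. Spon1 and Arntl are higher and the other 6 genes lower in Bmal1-/-, and the square that marks WT replicate 3 is the highest WT point for Gvin1, Coq7, Itpripl2, Pgap2 and Arl6ip1.

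The groups did not overlap for 26.9% of all tested genes (13.5% lower and 13.4% higher in Bmal1-/-), so the absence of overlap by which the 7 genes were picked was common. A stricter rule, an adjusted p under 0.05 in the genotype fit of edgeR, called 1.57% of all tested genes, 0.915% lower and 0.654% higher. The 7 genes were called as well, 6 lower and 1 higher, and nothing is read from this since the same contrast chose them. These calls were not stable, with 1 to 7 of the 7 called when a library was left out (7 only without WT replicate 3, and at most 3 without any other), 4 with sex as a covariate, 5 with upper-quartile scaling and 0 with a replicate block. Among the other 317 tested genes within 15 Mb of Arntl the groups did not overlap for 83 (26.2%), close to the share of all genes. The stricter rule called 9 of these 317 (2.84%), 7 lower and 2 higher. They were Arntl, 5 Trim genes, the globin gene Hbb-bt of red cells, and Atp2a1 and Mylpf, which encode the calcium pump and a myosin light chain of fast skeletal muscle. Hbb-bt, Atp2a1 and Mylpf had log2 fold changes of -3.31, -3.62 and -2.01. The call of Hbb-bt was lost without Bmal1-/- replicate 1, 2 or 3 or WT replicate 1 or 2, and that of Mylpf without Bmal1-/- replicate 1, 2 or 3 or WT replicate 1. Without WT replicate 3, 28 of the genes other than the 7 were called in place of 9.

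At the edge of the choice, the smallest gaps between groups among the 7 genes were those of Arl6ip1, from 278.7 CPM in the highest Bmal1-/- library to 347.6 in the lowest WT library, and of Pgap2, from 22.9 to 28.5. The groups of 83 other genes of the region did not overlap either. Except for the 9 called among them, these genes differed from the 7 in missing the stricter rule. Nearest to passing it was Tead1, a transcription factor gene 0.301 Mb from Arntl, with at most 57.1 CPM in Bmal1-/- and at least 66.7 in WT. Rrm1, for the large subunit of ribonucleotide reductase, had at most 50.8 CPM in Bmal1-/- and at least 69.0 in WT. Mrvi1 had at most 7.85 CPM in Bmal1-/- and at least 10.04 in WT. The relative gap of Tead1 was narrower than those of Arl6ip1 and Pgap2, and the relative gaps of Rrm1 and Mrvi1 were wider. Beyond 15 Mb, the next called genes without overlap on chromosome 7 were Prc1, a cytokinesis gene 32.9 Mb away on the centromere side (27.7 ± 4.30 against 63.3 ± 14.4 CPM, log2 fold change -1.19), and Htra1, a secreted protease gene 17.6 Mb away on the other side (375 ± 10.1 against 215 ± 22.8 CPM, log2 fold change 0.80), each as mean ± SD over 3 Bmal1-/- and 4 WT libraries.

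The 7 genes were not evenly placed. Arl6ip1, Itpripl2, Coq7 and Tmc7, 4 of the 6 tested genes in their stretch, lay within 465.8 kb on the side of the telomere. Itpripl2, Coq7 and Tmc7 followed each other with no tested gene between them and spanned 99.6 kb, with 17.7 kb between Itpripl2 and Coq7 and 2.48 kb between Coq7 and Tmc7. Between 5 and 10 Mb on this side 50 genes were tested, and the 3 called were Itpripl2, Coq7 and Tmc7. On the other side, at the same distance, 7 of 39 were called, which were Gvin1, 5 Trim genes and Hbb-bt, and Gvin1 began 1.65 Mb beyond the last of these Trim genes. Closer than 5 Mb, 56 genes other than Arntl were tested, and the 2 called were Spon1 and Arl6ip1. These calls are those of edgeR. The alternative method DESeq2 called further genes, among them Tead1 and Mrvi1 closer than 5 Mb and others between 5 and 10 Mb on the telomere side. Between 10 and 15 Mb, 3 of 178 were called, which were Pgap2 and the muscle genes Atp2a1 and Mylpf. The 7 genes were chosen by this same contrast, so nothing is read from their part in these counts. With them left out, 0 of 54 genes were called closer than 5 Mb and 2 of 177 between 10 and 15 Mb. Between 5 and 10 Mb, 0 of 47 were then called on the telomere side and 6 of 38 on the other. The counts of 0 follow from the choice, since every gene called in those parts was among the 7. They are therefore not compared with the shares elsewhere. In the rest of chromosome 7, 1.44% of 900 genes were called, and on the other chromosomes 1.501% of 14519.

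**Figure D3:**
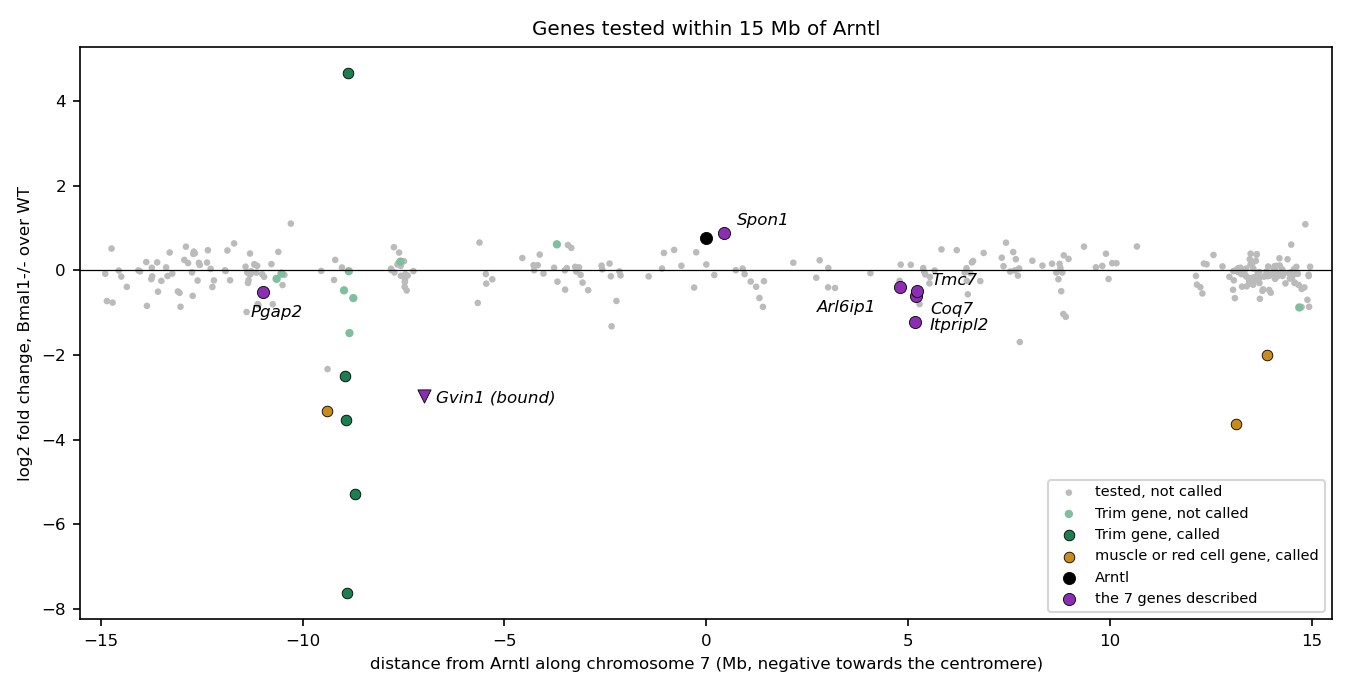
Log2 fold change of Bmal1-/- over WT (vertical axis) against the distance from Arntl in Mb (horizontal axis) for the 324 tested genes. The 7 genes are labelled, with Gvin1 drawn as a triangle at its bound of 7.87-fold, and Trim genes, muscle and red cell genes and Arntl are coloured as in the key. Spon1 lies beside Arntl and above 0, and the 4 genes near 5 Mb lie below 0 among neighbours that were not called.

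The nearest tested gene on either side of each of the 7 was compared in the same way. For all 10 such genes that were not among the 7 the groups overlapped, with log2 fold changes from -0.80 to 0.14 and a smallest adjusted p of 0.272 (edgeR's quasi-likelihood test). The called genes of the region other than Arntl and the Trim, muscle and red cell genes are all among the 7. The absence of calls among these neighbours therefore follows from the choice. Rras2, a RAS-like GTPase gene 3.41 kb from Spon1, was at 24.5 ± 4.73 (SD, n = 3) against 24.4 ± 6.13 CPM (SD, n = 4). Its WT mean was raised by WT replicate 3 at 33.6 CPM, while the other WT libraries were at 20.8 to 22.4 CPM. Far1, on the other side of Spon1, had a log2 fold change of -0.11 (SE 0.07). Nup98, a nuclear pore gene that begins 0.03 kb from Pgap2 on the opposite strand, had a log2 fold change of -0.09 (SE 0.06), and Rhog, 0.56 kb past Pgap2, one of -0.15 (SE 0.17).

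Around Arl6ip1, the ribosomal protein gene Rps15a had a log2 fold change of -0.25 (SE 0.12), and Smg1, a kinase gene of nonsense-mediated decay, one of 0.14 (SE 0.10). Syt17, the gene before Itpripl2, was at 4.85 ± 0.638 (SD, n = 3) against 4.42 ± 0.534 CPM (SD, n = 4). Tmc5, the gene after Tmc7 and its relative, had a log2 fold change of -0.80 (SE 0.42) at under 1 CPM. Syt9, the next tested gene after Gvin1, was spread from 9.19 to 35.7 CPM among the WT libraries, with a log2 fold change of -0.77 (SE 0.48). A p that misses the threshold does not show that a neighbour was equal in both groups.

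**Figure D4:**
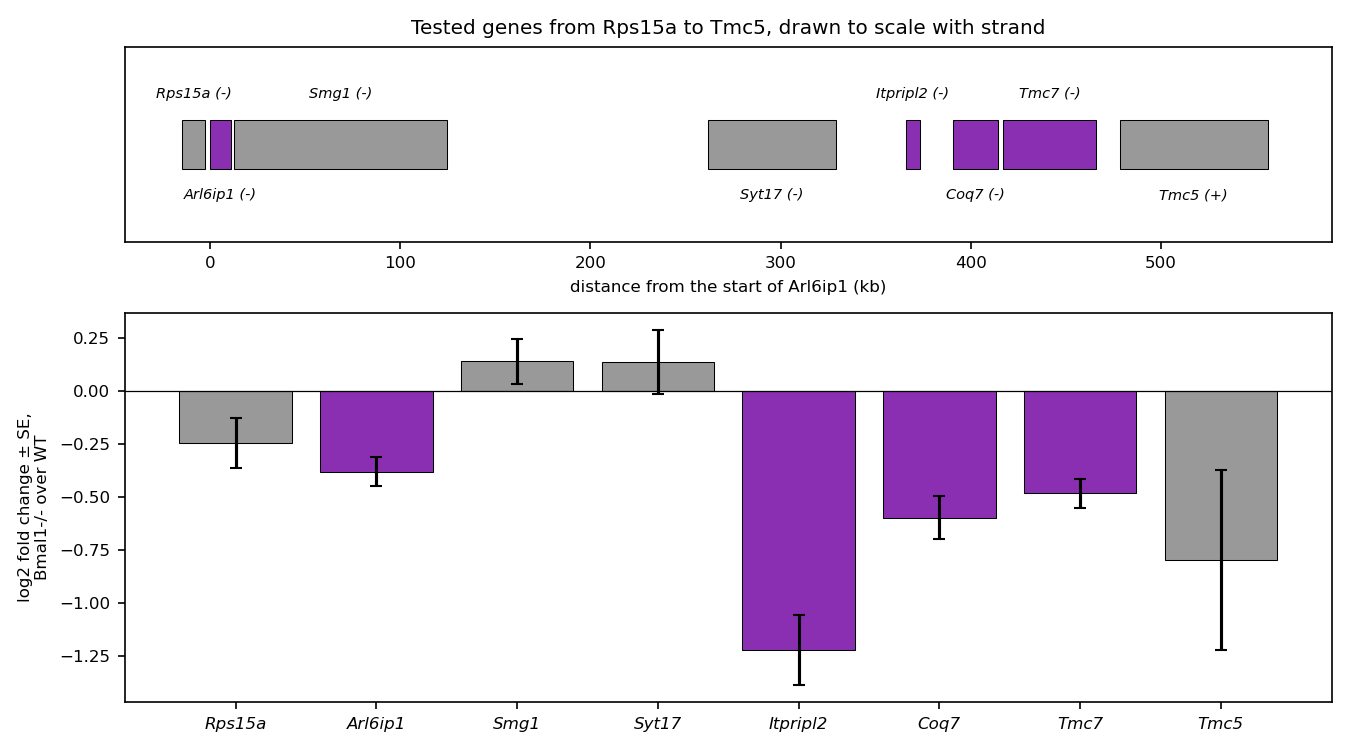
The upper panel draws the 8 tested genes from Rps15a to Tmc5 to scale by distance from the start of Arl6ip1 in kb, with their strand, and the lower panel their log2 fold change ± SE (bars from 0). The 4 genes in purple are lower in Bmal1-/-, from -0.38 to -1.22, while Smg1 and Syt17 between them are at 0.14 and 0.13.

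Per kilobase of exon, the order of levels in WT mice was Arl6ip1 (145 ± 6.73 CPM per kb), Spon1 (15.002 ± 1.81), Itpripl2 (9.29 ± 1.69), Pgap2 (6.68 ± 0.429), Coq7 (5.35 ± 0.665), Tmc7 (5.20 ± 0.180) and Gvin1 (0.0647 ± 0.0106), each as mean and SD over 4 libraries. Coq7 and Tmc7 overlapped, and the other neighbours in this order did not. In the Bmal1-/- mice Arl6ip1 (112 ± 0.769 CPM per kb, SD, n = 3) and Spon1 (27.7 ± 1.77) again led, Gvin1 was at 0, and Pgap2 (4.68 ± 0.316), Itpripl2 (3.98 ± 0.609), Tmc7 (3.72 ± 0.226) and Coq7 (3.54 ± 0.0212) followed each other with overlapping ranges. Itpripl2 thus stood above Pgap2 in every WT library and overlapped it in the Bmal1-/- libraries.

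WT replicate 3 was the highest of the 4 WT libraries for Gvin1, Coq7, Itpripl2, Pgap2 and Arl6ip1 and the lowest for Spon1. Without it, the WT mean was 58.2 CPM for Itpripl2, 32.6 for Coq7, 353 for Arl6ip1, 29.6 for Pgap2, 30.0 for Tmc7, 0.544 for Gvin1 and 165 for Spon1. The log2 fold changes with each library left out in turn ran from -1.33 to -1.09 for Itpripl2, from -0.67 to -0.52 for Coq7, from -0.57 to -0.48 for Pgap2, from -0.53 to -0.44 for Tmc7, from -0.40 to -0.35 for Arl6ip1 and from 0.80 to 0.93 for Spon1. No library decided the direction of any of these 6, which follows from the choice of genes whose groups did not overlap.

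Sex was not used to choose the genes and was tested over all libraries in a fit that kept genotype. None of the 7 genes was called by edgeR, with 0 at an unadjusted p under 0.05, a smallest unadjusted p of 0.192 and adjusted p = 0.997 for every gene of the 7. The share called among all tested genes was 0.0191%, which is 3 genes. The log2 differences of male over female ran from -0.15 (SE 0.10) for Spon1 to 0.16 for Gvin1, and Coq7 had 0.14 (SE 0.10).

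The marker levels of the tissue also differed between groups. The label of contused spinal cord was checked against 9 marker lists, in which 0 markers were at 0 and the oligodendrocyte, astrocyte and neuron sums were the highest. The summed endothelial markers (5 genes, 1 called lower) were at 252 to 298 CPM in Bmal1-/- and 304 to 547 in WT, with the highest sum in WT replicate 3, the library that was also highest for Itpripl2 and Coq7. Schwann cell markers (4 genes, 0 called) were at 301 to 380 against 397 to 700 CPM, red cell markers (5 genes, 1 called lower) at 26.1 to 60.0 against 149 to 451, and skeletal muscle markers (5 genes, 4 called lower) at 3.46 to 4.80 against 36.4 to 54.6. The called red cell marker was Hbb-bt. Hbb-bt, Hbb-bs of the same list and Atp2a1 of the muscle list lie within 15 Mb of Arntl, so these sums are not independent of the region. Higher in Bmal1-/-, with 0 of 5 genes called in each list, were the neuron sums (3519 to 4236 against 1521 to 3491 CPM) and the astrocyte sums (12049 to 14799 against 8682 to 12046), in the direction of Spon1. In both lists the groups nearly touched, and the lowest sum was that of WT replicate 3. The oligodendrocyte, microglia and macrophage, and fibroblast sums overlapped between the groups. The part of these shifts in the levels of the 7 genes was not tested, and in bulk tissue fewer cells of a type and less RNA per cell cannot be told apart.

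Of the genes that share a pathway or family with the 7, 103 were tested and 2 (1.94%) were called, a share near the 1.57% of all tested genes. At an unadjusted p under 0.05 in the edgeR test there were 27. The share of all tested genes at this unadjusted threshold is not given here. Nothing is therefore read from the unadjusted counts of these lists. The median log2 fold change of all tested genes was -0.01. For Spon1, 1 of 19 other matrix proteins with thrombospondin repeats was called, and the list's median was 0.19. It was Spon2, another spondin gene, on chromosome 5. Spon2 was at 48.6, 68.1 and 44.6 CPM in the Bmal1-/- libraries and at 2.58, 2.85, 1.75 and 2.07 CPM in the WT libraries. The groups were far apart, with a log2 fold change of 4.54 (SE 0.22, adjusted p = 0.000293, edgeR's quasi-likelihood test), so Spon2 was counted higher in Bmal1-/-, as Spon1 was.

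For Coq7, 1 of 12 other genes of coenzyme Q synthesis and handling was called, with a list median of 0.12. Coq10b, for a protein that binds coenzyme Q, fell from 33.2 ± 2.26 (SD, n = 4) in WT to 22.2 ± 1.37 CPM (SD, n = 3) in Bmal1-/-, a log2 fold change of -0.58 (SE 0.08, adjusted p = 0.0191, edgeR's quasi-likelihood test). The call did not survive the removal of Bmal1-/- replicate 1, 2 or 3, or of WT replicate 1 or 2, each of which left 0 called genes in this list. The number of genes of this list with a negative log2 fold change was 5 and with a positive one 7.

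For Gvin1, 0 of 17 other interferon-induced GTPases were called by edgeR, with 4 at an unadjusted p under 0.05. The list's median was -0.23, with 15 values below 0 and 2 above. Gbp9, a guanylate-binding protein gene, had the smallest p, at 7.38 ± 0.611 (SD, n = 3) against 10.3 ± 0.446 CPM (SD, n = 4) and a log2 fold change of -0.48 (SE 0.10, adjusted p = 0.0607, edgeR's quasi-likelihood test). For this list the largest log2 fold change in size was -0.94, of Mx1 (SE 0.39). It is not set against the bound of Gvin1, which comes from the counts by which Gvin1 was chosen.

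For Itpripl2, 0 of 4 other genes of the IP3 receptors and the ITPRIP family were called by edgeR, with 3 at an unadjusted p under 0.05. Itpr1, for an IP3 receptor, was at 89.4 ± 5.13 (SD, n = 3) against 65.2 ± 10.6 CPM (SD, n = 4), and its log2 fold change was 0.46 (SE 0.13, adjusted p = 0.139), opposite in sign to that of Itpripl2. For Pgap2, 0 of 28 other GPI anchor genes were called, 2 had an unadjusted p under 0.05, and the median was -0.01. Pign, which modifies the anchor in the ER, had the smallest p, with a log2 fold change of -0.17 (SE 0.06, adjusted p = 0.179, edgeR's quasi-likelihood test).

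For Tmc7, 0 of 6 other Tmc genes were called by edgeR, 3 had an unadjusted p under 0.05, and the median was -0.21. Tmc3 had the smallest p, at 4.31 ± 0.948 (SD, n = 3) against 1.69 ± 0.597 CPM (SD, n = 4), with a log2 fold change of 1.35 (SE 0.30, adjusted p = 0.0768), opposite in sign to Tmc7. For Arl6ip1, 0 of 17 other ER-shaping genes were called, 3 had an unadjusted p under 0.05, and the median was 0.06. Ckap4, an ER sheet protein, had the smallest p there, with a log2 fold change of -0.43 (SE 0.16, adjusted p = 0.194, edgeR's quasi-likelihood test).

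**Figure D5:**
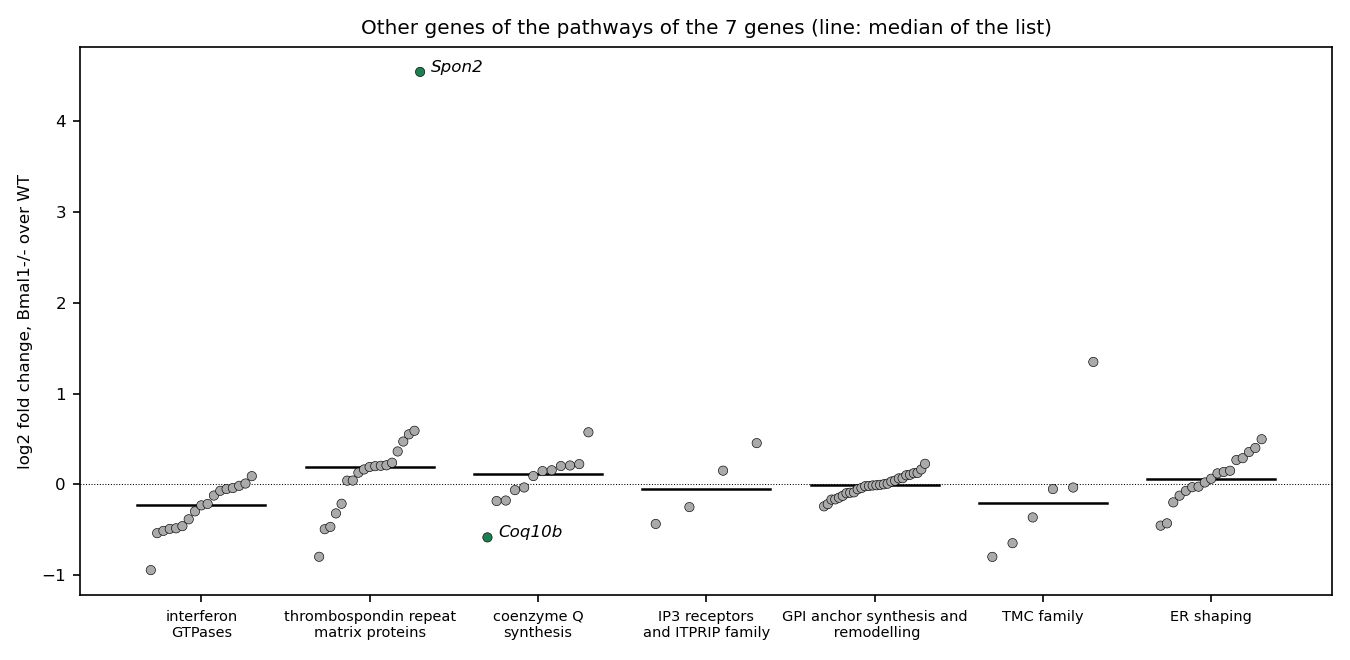
Log2 fold change of Bmal1-/- over WT (vertical axis) for each tested gene of the 7 pathway lists (horizontal axis), with called genes in green and a line at the list's median. Only Spon2, at 4.54, and Coq10b, at -0.58, are called, and the medians run from -0.23 to 0.19.

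The genes whose pattern was most like that of each of the 7 over the 7 libraries were found by the root mean square difference of log2 CPM, each gene centred on its own mean, so that 0 is an identical pattern. Most of each pattern is the difference between groups, for which the 7 were picked. For Spon1 they were Bmpr1b (0.06) and Lrp4 (0.06), for Coq7 Fam117a (0.04) and Sox13 (0.05), for Arl6ip1 Ly75 (0.03) and Pltp (0.03), and for Pgap2 Gbp9 (0.05) and Garem2 (0.06). For Tmc7 they were Cd38 (0.07) and Por (0.08), and for Itpripl2 Slfn9 (0.08) and Hmmr (0.11). Gvin1 had no close match, with Trim5 at 0.26 and Tnnc2 at 0.38. Of these 14 genes only Trim5 lies on chromosome 7. The nearest of the 7 to each other were Tmc7 and Arl6ip1 (0.09) and Coq7 and Pgap2 (0.10), but Arl6ip1 was number 15 in the order of likeness to Tmc7 and Tmc7 number 137 in that to Arl6ip1, and Pgap2 was number 16 in the order for Coq7 and Coq7 number 33 in that for Pgap2.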

How the data were processed

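Stranded poly-A RNASeq libraries were made from contused mouse spinal cord at dpi 3, 3 labelled Bmal1-/- and 4 WT. The deposited values are raw gene counts that the authors made with HTSeq 0.10.0 from Tophat2 alignments to GRCm38, with no normalization. The annotation release, the strand setting and the handling of reads that match several genes are not given in the sources used here. The 7 genes, the gene lists and the tests were chosen with earlier results of these data known.

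Genes were filtered with filterByExpr, normalized with TMM and tested with the quasi-likelihood test of edgeR 4.0.16 (limma 3.58.1, R 4.3.3) on genotype, with Benjamini-Hochberg adjustment over all 15743 tested genes and a threshold of 0.05. The sex test added genotype and sex to 1 fit. The method was tested on simulated counts with 200 changed genes. The labels do not name the cages or litters, so p-values measure only the spread between these mice. Gene positions and transcripts came from GENCODE release M21 (GRCm38), which matched 21939 of 21965 gene IDs, and promoters from RefSeq (GRCm38.p6).

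Besides the 7 genes, the genes named are Arntl, the nearest tested gene on each side, called genes of the window, the next called gene beyond it on each side, up to 3 called genes of each pathway list or its gene of smallest p, and the 2 genes nearest in pattern. Values just outside the choice, Mx1 and genes in descriptions of figures were added after their values were seen. Alternatives were DESeq2 1.42.0, limma-voom, RLE, upper-quartile and total-count scaling, other filters, a prior count of 2, sex as a covariate, a replicate block and each library left out. No columns were left unmapped.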

Additional observations from a re-analysis of the deposited data

Results flagged for a closer look

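In 33 sets of 4 WT libraries examined, for the 7 genes and the other genes named, 5 had a highest or lowest library set apart from the rest by more than Dixon's 95% critical value for 4 samples (the gap to the nearest library over the whole range). Chance gives about 1 in 20. None was 1 of the 7 genes. The ratio was 0.844 for Hbb-bt (14.0 to 42.0 CPM), 0.940 for Mylpf (5.22 to 9.94 CPM), 0.878 for Rras2, the neighbour of Spon1 (20.8 to 33.6 CPM), 0.986 for Syt17, the neighbour of Itpripl2 (3.62 to 4.69 CPM), and 0.914 for Ckap4 (73.2 to 105 CPM). WT replicate 3 was the library apart in each, the highest for Hbb-bt, Mylpf, Rras2 and Ckap4 and the lowest for Syt17.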

How the results depend on the processing

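The direction of all 7 genes was the same in every alternative, and the groups of all 7 stayed apart with RLE, upper-quartile and total-count scaling. Both follow largely from the choice of genes whose groups did not overlap, so nothing is read from them. Their calls were not stable: of the 7, edgeR called 7, DESeq2 7, limma-voom 6, and edgeR 6 without the filter, 5 with upper-quartile scaling, 4 with sex as a covariate, 1 to 7 with a library left out and 0 with the block. The median log2 fold change of the 7 ran from -0.57 to -0.49 with each library left out. The fitted value of Gvin1, which had 0 counts in Bmal1-/-, depended on the prior count and is no bound. Of the other genes within 15 Mb of Arntl, 9 were called (7 lower, 2 higher), and DESeq2 called 40 (27 lower, 13 higher), with 1494 against 247 over all genes. With each library left out the number was 6 to 28 (5 to 19 lower, 1 to 9 higher), with the 28 without WT replicate 3, and 57 to 730 genes were called over all. Of the pathway genes 2 were called, 6 with DESeq2 and 1 to 5 with a library left out. For sex, 0 of the 7 genes were called in every alternative run. The 5 called Trim genes stayed called in every setting but the block.

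With a replicate block 0 genes were called, in the window (0 lower, 0 higher), in the pathway lists (0) and over all genes. The replicate numbers did not pair the samples, since deviations of same-numbered libraries correlated at -0.174, 0.183 and -0.295, and the cause of the loss was not tested. The median of the 7 was -0.49 with the block.

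Depth limits Gvin1, which rests on 28 counts or fewer per library. With 3 and 4 mice the values describe these mice, and which WT mouse was the littermate is not known.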
